A study of Mus musculus with 3 samples.

Results

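The clustered histone genes of the mouse were followed through vitamin C treatment of T lineage cells and of the stromal cells that feed them. The genes were taken as every non-control probe whose gene name on the array begins with Hist1h, Hist2h, Hist3h or Hist4h, which gave 46 probes for 36 gene names among 41174 probes. By histone type these were 8 probes for H1, 16 for H2A, 11 for H2B, 3 for H3 and 8 for H4. The choice used names only and no measured value.

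RNA was hybridised to 3 Agilent arrays of 2 colours, with phospho-ascorbate (pAsc, a stable form of vitamin C) treated RNA in Cy5 and untreated RNA in Cy3. The first array held the stromal line OP9-DL1, grown alone and continuously in MEM, labelled as osteoblast cells of strain B6-C3Hf1, with 24 h of 800 µM pAsc against none. The others held T lineage cells grown from C57BL/6 bone marrow progenitors on OP9-DL1 with Flt3L and IL7, with 24 h of pAsc at day 14 or 72 h of pAsc at day 17, each against untreated cells. OP9-DL1 is 1 line that presents the Notch ligand Dll1, and per the labels' protocols it was depleted from the T cell samples by a short adherence step. Stromal RNA was still read there: the 16 measured stromal marker probes were lower in untreated day 17 T cells than in untreated stroma by a median of 1.09 on the log2 scale. Each comparison rests on 1 array, without replicates or swapped dyes. No test across samples could be made, and a gene-specific dye effect cannot be told apart from treatment on a single array. In these bulk samples fewer cells of a type and less RNA per cell cannot be told apart.

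Most histone protein is made while DNA is copied, from many small intron-free genes packed in clusters. H2A, H2B, H3 and H4 form the core around which DNA is wound, and H1 binds the linker between cores. The mRNAs of these genes end in a conserved stem-loop, bound by the protein Slbp, in place of a poly(A) tail, and they are degraded when replication stops. The samples were labelled by oligo-dT priming of polyadenylated RNA, so a probe reads the part of each histone RNA that was primed in this way. Outside S phase some clustered genes are also known to give polyadenylated transcripts that run past the stem-loop.

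The proteins differ little within a type, and so do the probes. Of the 46 probes, 15 matched another probe of their histone type by a rule over the whole ungapped overlap of the 2 probes. It asked for an overlap of 30 or more bases with at least 80% of them identical. The Hist1h2aa and Hist1h2af probes below fall outside this rule, though they share a run of 44 bases. In the design 14 probes were listed with several RefSeq transcripts. The probes are 60 bases long and are placed on mm9, per the file headers. The 3 pairs below show how alike they are. Capitals mark the 2 bases that differ between Hist1h2bk, an H2B probe at chr13:22127928-22127987 (plus strand), and Hist1h2bm at chr13:21814139-21814198 (plus strand). In the other pairs capitals mark the longest shared run, 50 bases for the H4 probes Hist1h4d, at chr13:23673665-23673724 (plus strand), and Hist1h4f, at chr13:23643249-23643308 (minus strand). It is 44 bases for the H2A probes Hist1h2aa, at chr13:24026659-24026718 (plus strand), and Hist1h2af, at chr13:23626108-23626167 (plus strand).
Hist1h2bk: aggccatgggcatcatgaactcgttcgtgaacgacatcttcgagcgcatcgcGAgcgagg
Hist1h2bm: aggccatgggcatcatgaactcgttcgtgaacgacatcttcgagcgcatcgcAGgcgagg
Hist1h4d: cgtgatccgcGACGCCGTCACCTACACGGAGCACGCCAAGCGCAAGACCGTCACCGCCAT
Hist1h4f: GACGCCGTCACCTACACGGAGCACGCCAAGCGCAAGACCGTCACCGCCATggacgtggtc
Hist1h2aa: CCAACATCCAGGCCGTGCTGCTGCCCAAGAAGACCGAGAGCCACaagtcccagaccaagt
Hist1h2af: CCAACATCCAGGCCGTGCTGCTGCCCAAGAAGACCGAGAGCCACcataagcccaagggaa
Values below are therefore read by histone type first, and a gene name stands for its probe.

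The stem-loop itself, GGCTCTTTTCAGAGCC, was taken as the 6-base stem and 4-base loop in the Hist1h3a probe and searched on the probe strand. It lay whole in 1 of 41174 probes (0.00243%), that of Hist1h3a. The probe of Hist1h2ab ended inside it, after 11 of its 16 letters, and the probe of Hist1h2ae began inside it with the last 12 letters and ran 48 bases beyond. The 30 bases of each probe around these letters are given with the stem-loop letters in capitals.
Hist1h2ab: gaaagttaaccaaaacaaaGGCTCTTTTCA
Hist1h2ae: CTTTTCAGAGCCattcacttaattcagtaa
Hist1h3a: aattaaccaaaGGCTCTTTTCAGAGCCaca
So the first of these probes ends in the stem-loop and the last ends 3 bases after it, and both can bind RNA that ends there or runs past it. The middle one reads RNA that runs past it.

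A probe counted as measured where it was well above background in both channels, which held for 34 of the 46 histone probes in stroma, 40 in T cells of the 24 h array and 41 in those of the 72 h array. Over all probes the numbers were 21340, 25536 and 24558. Of the histone probes, 34 were above background in every channel of every array and 3 in none. Ratios are log2 of treated over untreated after loess normalization. Repeat spots of 1 probe differed with a log2 SD of 0.069, 0.071 and 0.068 on the 3 arrays, and different probes of 1 gene with an SD of 0.18, 0.14 and 0.18. A probe was called at 2-fold, and a looser rule of 1.5-fold was added after the data were seen.

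Across T cells treated for 72 h most histone probes read lower than in untreated cells, and those for H4 stood lowest. The median log2 ratio over the 41 measured histone probes was -0.29, against 0.00 over all probes, with 32 of 41 below 0 (78.0%, against 49.1% of all probes). At 1.5-fold 9 of 41 histone probes were lower (22.0%, against 1.72% of all probes) and none higher (1.55% of all probes). At 2-fold 1 was lower (0.289% of all probes) and none higher (0.183%). With the Agilent log ratio the histone median was -0.38, with 11 of 41 lower by 1.5-fold (26.8%, against 5.05% of all probes with that ratio). With each array centred on the median of all its probes in place of loess the histone median was 0.28, but the median of all measured probes then stood at 0.49, above it. With centring on measured probes it was -0.21, with 4 lower and 3 higher by 1.5-fold and 0 lower by 2-fold. The share of all probes past these rules under that centring is not given here.

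**Figure D1:**
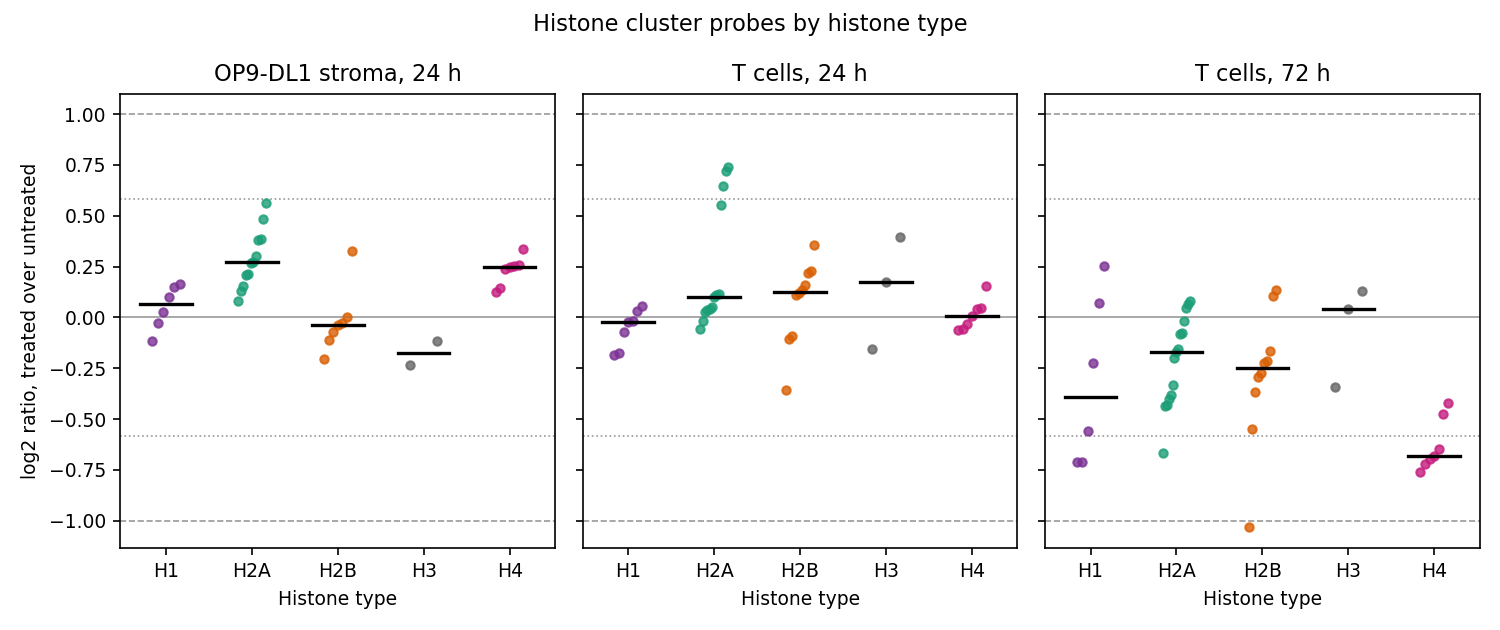
Log2 ratio of treated over untreated RNA (vertical axis) for each measured histone cluster probe, by histone type, on the 3 arrays. Points are probes, black bars are medians, dotted lines mark 1.5-fold and dashed lines 2-fold. In T cells at 72 h all 7 H4 points lie between -0.76 and -0.42, while in stroma all 7 lie above 0.

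H4, the core histone with the fewest protein variants, was the most uniform type, but 5 of its 8 probes overlap another H4 probe and may read the same RNA. All 7 measured H4 probes were below 0 at 72 h, with a median of -0.68, or 1.61-fold lower, and an SD of 0.13 between probes. 5 of the 7 fell by at least 1.5-fold. At 24 h the same 7 probes had a median of 0.01 and a range of -0.06 to 0.16. The 72 h median was -0.66 with the Agilent log ratio and -0.36 with centring on measured probes. With centring on all probes it was 0.13, again below the 0.49 of all measured probes.

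Per sample, the Hist1h4d probe printed above had treated log2 levels of 12.47 in stroma, 14.09 at 24 h and 13.01 at 72 h, against untreated levels of 12.23, 14.09 and 13.70. The other Hist1h4d probe had treated levels of 10.29, 11.55 and 10.21, against untreated levels of 10.04, 11.50 and 10.93 in the same order. Both probes of Hist1h4d thus read high in both day 14 samples and lowest among T cells in the treated day 17 sample, with 72 h ratios of -0.70 and -0.72. Hist1h4f, whose probe overlaps the first of them, had treated levels of 12.76, 14.46 and 13.36, against untreated levels of 12.64, 14.49 and 14.12. Its 72 h ratio of -0.76 was the lowest of the type, and its 24 h ratio was -0.03. Hist1h4a had treated levels of 10.95, 12.47 and 11.38, against untreated levels of 10.80, 12.53 and 12.03, with a 72 h ratio of -0.65. Hist2h4, which lies in another cluster, had treated levels of 11.39, 12.95 and 11.76, against untreated levels of 11.14, 12.91 and 12.44. Its 72 h ratio was -0.68, but its probe matches that of Hist1h4f in 45 of 49 aligned bases and that of Hist1h4d in 37 of 39, so it may read RNA of those genes too. Hist1h4i at -0.48 and Hist4h4 at -0.42 were the H4 probes short of 1.5-fold, and the other probe of Hist4h4 was not well above background on any array.

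The only histone probe past 2-fold on any array was that of Hist3h2ba, an H2B gene. It had treated log2 levels of 10.74 at 24 h and 9.34 at 72 h, against untreated levels of 11.10 and 10.37. The 72 h ratio was -1.03, or -1.14 with the Agilent log ratio, and the 24 h ratio was -0.36, which was the lowest of all histone probes there. With median centring in place of loess it no longer passed 2-fold. In stroma neither channel was well above background, and untreated stroma was at least 29.8-fold lower than untreated day 14 T cells and at least 18.0-fold lower than untreated day 17 T cells, bounds set by the stromal signal and open to dye and array effects. Its probe is listed with 1 transcript and overlapped no other histone probe by the rule above.

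Linker histone H1 was split. Hist1h1b had treated levels of 9.71 in stroma, 11.20 at 24 h and 9.94 at 72 h, against untreated levels of 9.74, 11.23 and 10.65. Hist1h1e had treated levels of 9.82, 11.30 and 10.21, against untreated levels of 9.72, 11.37 and 10.92. Both fell by 0.71 on the log2 scale at 72 h, and the ratios of these probes on the other arrays lay between -0.07 and 0.10. A second Hist1h1e probe, farther along the transcript, was measured in both channels at 24 h alone, at -0.18. Hist1h1a lay just outside the 1.5-fold rule at -0.56. Hist1h1c was at 0.07, and Hist1h1d was at -0.22 with the probe nearer the start of its transcript and at 0.25, the highest of all histone probes, with the one farther along. The H1 median at 72 h was -0.39 over 6 probes. Hist1h1t, a testis H1, was not measured in both channels of any array.

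H2A and H2B, which pair in the core, had medians of -0.17 over 15 probes and -0.25 over 10 at 72 h. Hist1h2ab, the H2A probe that ends in the stem-loop, fell by 0.67, with treated levels of 8.98 in stroma, 10.34 at 24 h and 9.03 at 72 h, against untreated levels of 8.77, 10.24 and 9.70. The highest H2A probe was Hist1h2aa at 0.08, a bright probe whose Agilent value was -0.18. Among H2B probes Hist2h2be lay just short of 1.5-fold at -0.55, and Hist1h2bp was highest at 0.14. The Hist1h2bk and Hist1h2bm probes that differ in 2 bases read -0.22 and -0.27. Both probes of Hist3h2a were below 0, at -0.33 and -0.43. H3 rested on 3 probes, and its values at 72 h were -0.34 for Hist1h3a, 0.04 for Hist1h3d and 0.13 for Hist2h3c1. With the Agilent log ratio all 3 were below 0, with Hist1h3d at -0.07 and Hist2h3c1 at -0.08, so the sign of these 2 bright probes depended on the normalization.

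**Figure D2:**
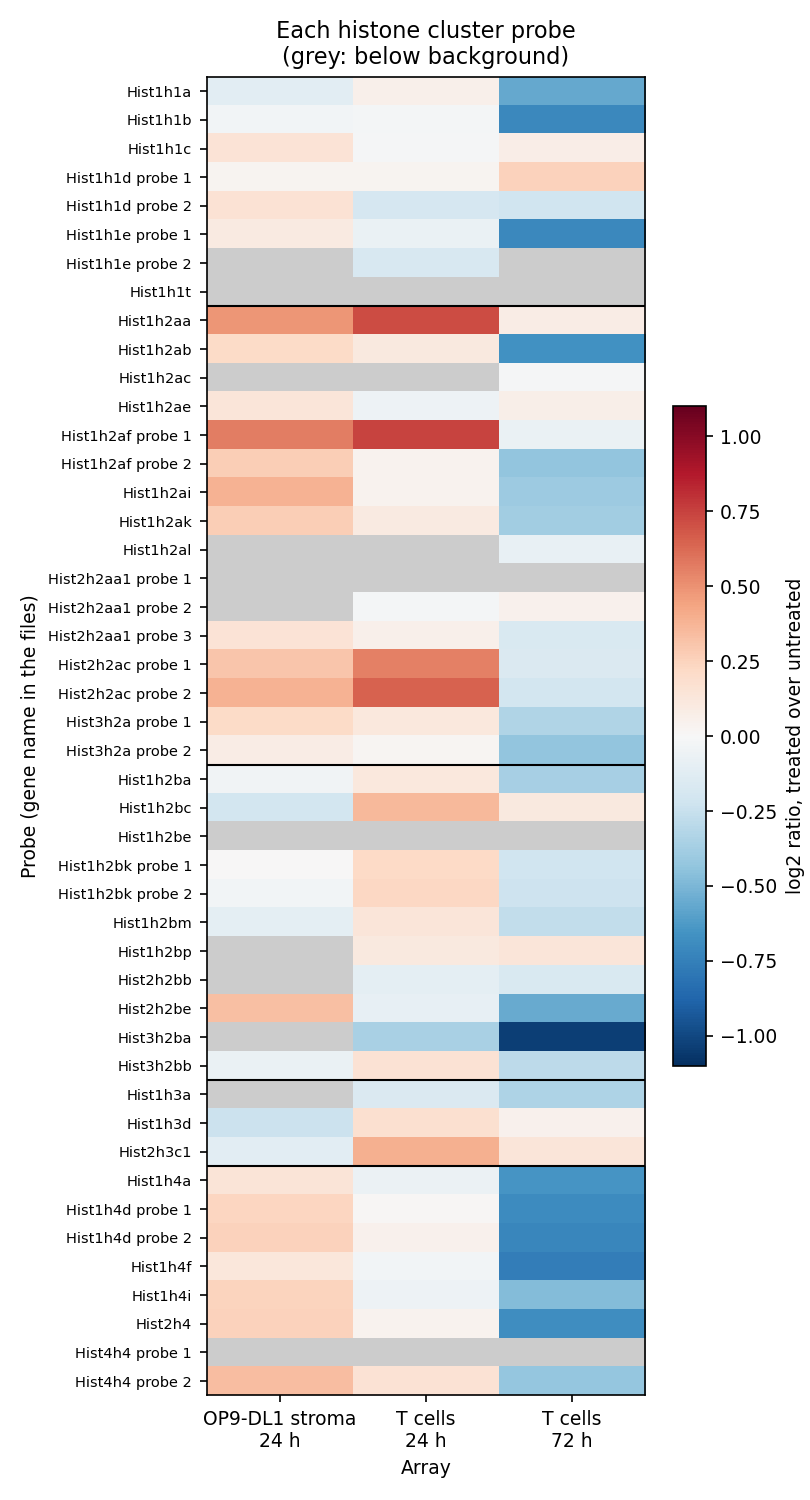
Log2 ratio of treated over untreated RNA for each of the 46 histone cluster probes (rows, grouped by histone type) on the 3 arrays (columns). Blue is lower and red higher in treated cells, and grey marks probes not well above background in both channels. The measured H4 probes are red in stroma and blue in T cells at 72 h.

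At 24 h the histone probes of T cells lay near 0 as a group. Their median was 0.05, against 0.01 over all probes, with 26 of 40 above 0 (65.0%, against 52.6% of all probes). None passed 2-fold in either direction (0.219% of all probes were higher and 0.00783% lower). None was lower by 1.5-fold (0.176% of all probes), and 3 of 40 were higher (7.50%, against 2.51% of all probes). These 3 were the H2A probes Hist1h2af at 0.74, Hist1h2aa at 0.72 and Hist2h2ac at 0.65, all among the brightest on the array. Above a mean log2 brightness of 14 over the arrays, 13.0% of all probes were higher by 1.5-fold, so the count of 3 among 7 such histone probes is read against that share. With the Agilent log ratio the 3 values were 0.38, 0.32 and 0.18, and no histone probe passed 1.5-fold (4.32% of all probes higher, 2.64% lower with that ratio). The second Hist1h2af probe, also bright, read 0.04, and the second Hist2h2ac probe, also bright, read 0.55. The Hist1h2af and Hist1h2aa probes at 0.74 and 0.72 share a run of 44 bases and may read the same RNA.

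Among the other types at 24 h the H1 median was -0.02, with Hist1h1d lowest at -0.18 and Hist1h1a highest at 0.06. H2B had a median of 0.13, with Hist1h2bc highest at 0.36. H3 had a median of 0.17, with Hist2h3c1 at 0.39, a bright probe whose Agilent value was 0.01. The lowest H2A value was -0.06 for Hist1h2ae.

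In OP9-DL1 stroma the histone median was 0.15, against 0.01 over all probes, with 25 of 34 above 0 (73.5%, against 51.8% of all probes). No histone probe passed 1.5-fold or 2-fold. Over all probes 1.8% were higher and 2.54% lower by 1.5-fold, and 0.319% higher and 0.0937% lower by 2-fold. H2A and H4 carried the positive values. All 12 measured H2A probes were above 0, with a median of 0.27 and a range of 0.08 for Hist3h2a to 0.56 for Hist1h2af. All 7 H4 probes were above 0, with a median of 0.25 and a range of 0.13 for Hist1h4f to 0.34 for Hist4h4. The SD between probes of 1 gene was 0.18 on this array, and probes within each of these types overlap in sequence. The H1 median was 0.06, with Hist1h1a lowest at -0.11 and Hist1h1d highest at 0.16. The H2B median was -0.04, with Hist1h2bc lowest at -0.20 and Hist2h2be highest at 0.33. Both measured H3 probes were below 0, Hist1h3d at -0.23 and Hist2h3c1 at -0.12.

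Taking one array's ratio from another's cancels any dye effect that is constant for a probe. The 72 h ratio minus the 24 h ratio had a median of -0.46 over 39 histone probes, against -0.02 over all probes, and 34 of 39 were below 0 (54.0% of all probes). None differed by 2-fold (0.148% of all probes were higher and 0.291% lower), and at 1.5-fold 14 were lower (35.9%, against 2.26% of all probes) and none higher (0.807%). The medians by type were -0.70 for H4, -0.47 for H2A, -0.44 for H2B, -0.33 for H1 and -0.18 for H3. Of the 14, 4 were among the 7 histone probes above a brightness of 14 (57.1%, against 3.35% of all probes that bright). All probes that bright had a median difference of -0.11, with 70.7% below 0. The lowest differences were -0.84 for Hist2h2ac, -0.82 for Hist1h2af, -0.78 for Hist1h2ab, -0.77 for Hist1h4d, -0.73 for Hist1h4f and -0.72 for Hist2h4. Those of Hist2h2ac and Hist1h2af came from bright probes that read high at 24 h, at 0.65 and 0.74. At 72 h these probes were at -0.20 and -0.07. The highest were 0.22 for Hist1h1d, 0.12 for Hist1h2ae, 0.09 for Hist1h1c, 0.07 for Hist2h2aa1 and 0.03 for Hist1h2bp, and only these 5 were above 0. The median stayed between -0.46 and -0.31 under every alternative run, centring on all probes included.

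The stromal ratio minus the T cell ratio at 24 h had a median of 0.10 over 34 histone probes, against -0.03 over all probes. None reached 1.5-fold (1.84% of all probes higher, 6.95% lower) or 2-fold (0.3% higher, 1.17% lower). By type the medians were 0.21 for H4, 0.10 for H2A, 0.08 for H1, -0.23 for H2B and -0.46 for the 2 H3 probes. Hist2h2be was highest at 0.42 and Hist1h2bc lowest at -0.56.

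Probes were also split by their place in the transcript. Those that begin within the first 500 bases of a core histone transcript, or 700 for H1, are called proximal (29 probes) and the rest distal (17 probes). This split was made with the values known. In stroma the medians were 0.16 proximal and 0.13 distal. At 72 h the proximal median was -0.35, with 25 of 28 below 0 (49.1% of all probes) and 8 lower by 1.5-fold (1.72%). The distal median was -0.02, with 7 of 13 below 0, near the share of all probes, and 1 lower by 1.5-fold. Brightness differed with place. All 28 measured proximal probes had a mean log2 brightness of at least 8.72 on that array, while 7 of the 13 distal ones were at 7.52 or less, where the offset shrinks ratios. Those 7 had a median of 0.05 and the 6 brighter distal probes a median of -0.46, with 4 of 6 below 0, a split added after the data were seen. The part of brightness in the difference by place was not tested. For the 72 h minus 24 h difference all 28 proximal probes were below 0 (54.0% of all probes), with a median of -0.53, and 11 distal ones had a median of -0.06. At 72 h Hist1h2ae, whose probe reads past the stem-loop and is one of the dim ones, was at 0.06. Hist1h2ab, whose probe ends in the stem-loop, was at -0.67 and Hist1h3a, whose probe holds it whole, at -0.34. The probes of Hist1h2ab and Hist1h3a can also bind RNA that runs past the stem-loop, so these values do not separate the 2 kinds of RNA. The brighter distal probes below 0 were those of Hist3h2ba, Hist2h2be, Hist1h4i and Hist3h2a.

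**Figure D3:**
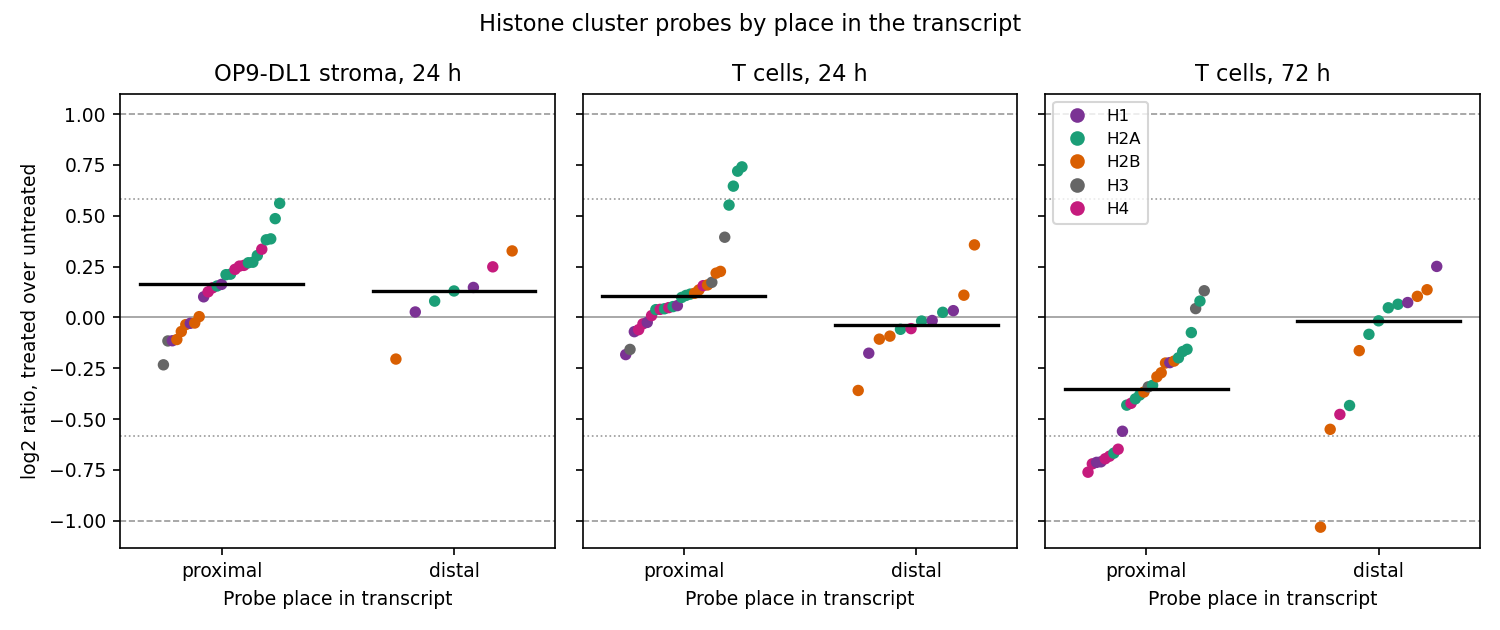
Log2 ratio of treated over untreated RNA (vertical axis) for measured histone probes, proximal or distal in the transcript, on the 3 arrays. Points are probes coloured by histone type, black bars are medians, dotted lines mark 1.5-fold and dashed lines 2-fold. At 72 h the proximal median is -0.35 and the distal median -0.02, with 7 of the 13 distal probes dim.

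Levels of each channel were also compared across arrays after Aquantile scaling. Treated T cells of day 17 minus treated T cells of day 14 had a histone median of -0.80 over 41 probes, against -0.02 over all probes. Of these 15 were lower by 2-fold (5.33% of all probes) and none higher (5.63%), and at 1.5-fold 27 were lower (13.9% of all probes) and none higher (13.1%). Untreated T cells of day 17 minus day 14 had a median of -0.44 over 39 probes, against -0.03 over all probes, with none past 2-fold (6.31% of all probes higher, 3.73% lower) and at 1.5-fold 9 lower (12.2%) and none higher (12.8%). H4 had medians of -1.16 in treated and -0.50 in untreated cells, and all 7 H4 probes were lower by 2-fold in treated cells. H2B had -1.01 in treated and -0.59 in untreated cells, H1 -0.60 and -0.39, H2A -0.61 and -0.25, and H3 -0.31 and -0.18. Day 17 and day 14 samples lay on different arrays of 1 slide, so day and array cannot be told apart. Stromal markers moved with the day. From day 14 to day 17 their median log2 level was higher by 1.31 in treated cells, with 16 of 16 probes above 0 (48.5% of all probes). In untreated cells it was higher by 1.64, with 14 of 14 above 0 (47.5% of all probes). As a group histone levels were lower in untreated stroma than in untreated T cells, as given next for day 14. Against untreated day 17 T cells the histone median was -0.96 over 34 probes, with 0.24 over all probes. For H2B 6 of 7 probes were higher in stroma than at day 17 (61.7% of all probes), with a median of 0.16. The part of stromal RNA in the day 17 minus day 14 values was not tested.

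**Figure D4:**
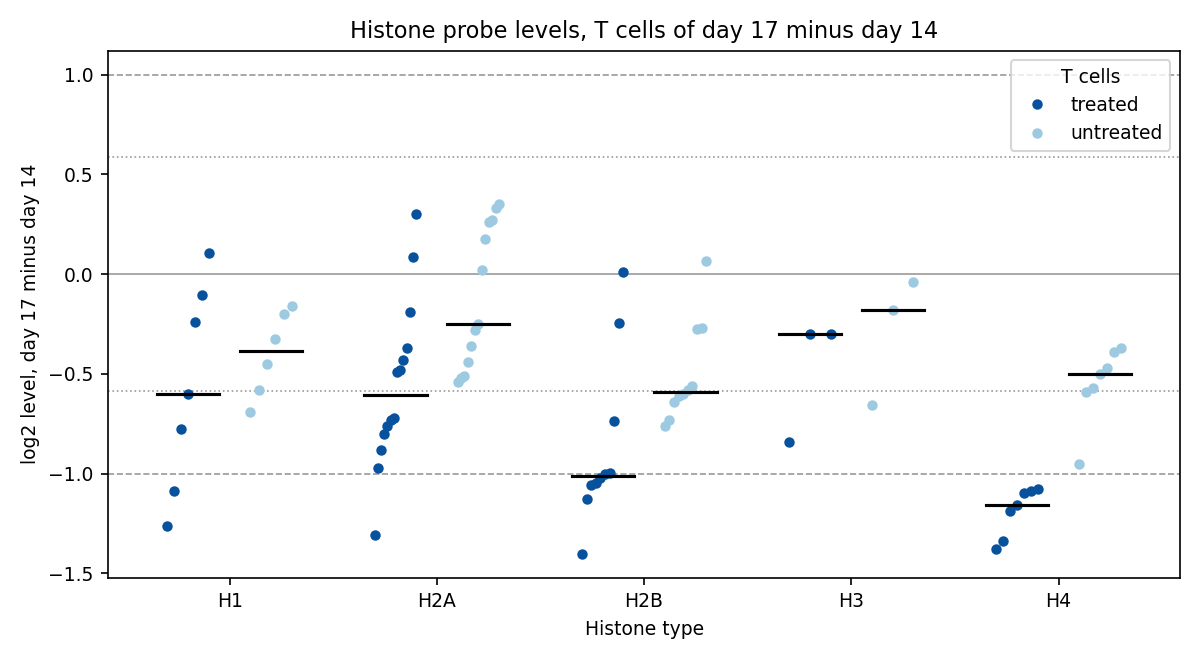
Difference in log2 level between T cells of day 17 and day 14 (vertical axis), for treated cells (dark points) and untreated cells (light points), by histone type. Black bars are medians, dotted lines mark 1.5-fold and dashed lines 2-fold. All 7 treated H4 points lie below the 2-fold line and no untreated point of any type does.

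Untreated stroma minus untreated day 14 T cells had a histone median of -1.23 over 34 probes, against 0.21 over all probes. Of these 19 were lower by 2-fold in stroma (16.2% of all probes) and none higher (22.6%). At 1.5-fold 24 were lower (24.8% of all probes) and 1 higher (34.5%). All 7 H4 probes were among them, with a median of -1.77. The H1 median was -1.57, and Hist1h2ai at -2.11 was the lowest H2A probe. The H2B median was -0.45, and Hist1h2bc was higher in stroma by 0.84. Hist1h3a, not well above background in stroma, was at least 9.21-fold lower there than in untreated day 14 T cells.

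The rest of the histone system was followed in lists chosen with earlier results known. Of the listed histone variants, whose gene names do not begin with Hist1h to Hist4h, 24 probes were measured at 72 h. Their median was 0.00 and none passed 1.5-fold. Slbp, the stem-loop binding protein, was at -0.24 in stroma, 0.07 at 24 h and 0.16 at 72 h. Npat, the coactivator of the histone loci, was at -0.13 and 0.04 at 72 h with its 2 probes. At 72 h the variant H2afz was at -0.08, and H2afx, whose phosphorylated form marks DNA breaks, was at -0.37. H3f3b, a gene for H3.3, was at 0.16, -0.05 and 0.32 with 3 probes, and H1f0, a linker histone of resting cells, at 0.39, 0.44 and 0.27. Genes of histone transcription and mRNA processing had a 72 h median of -0.07 over 28 probes, with Sympk lowest at -0.35 and Eri1 highest at 0.24. Histone chaperones had a median of -0.08 over 28 probes, with Asf1a lowest at -0.39. None of these probes passed 1.5-fold at 72 h. In stroma 1 of 3 H3f3b probes, at -0.61 beside -0.44 and -0.35, Pou2f1 at -0.78 and Nap1l1 at -0.73 were lower by 1.5-fold. Each was the only such probe of its list, which made 4.35%, 4.17% and 3.85% of the lists, against 2.54% of all probes. At 24 h 1 of 3 bright H3f3a probes was higher, at 0.76 beside 0.47 and 0.58 (4.17% of the variant probes, against 2.51% of all probes). With the Agilent log ratio it read 0.44 and no variant probe passed 1.5-fold.

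Genes of S phase and replication, which are active when histone mRNA is made, had medians of 0.15 in stroma, -0.04 at 24 h and -0.11 at 72 h. At 72 h 31 of 43 probes were below 0 (72.1%, against 49.1% of all probes) and none fell by 1.5-fold (1.72% of all probes). By 1.5-fold 1 was higher (2.33%, against 1.55% of all probes), a probe of Ccne2 at 0.62 beside 0.34 for the other. Rpa2 was lowest at -0.43, and the replication genes Pcna and Rrm2 were at 0.20 and 0.36. G2 and mitosis genes had a median of 0.05 at 72 h over 32 probes with none past 1.5-fold, and Mki67, a proliferation marker, was at -0.06 and -0.10. The CDK inhibitor Cdkn1a was at -0.47 at 72 h, beside a median of 0.22 for its list. S phase genes, like the histones, were lower in untreated stroma than in untreated day 14 T cells, with a median of -1.55, and their day 17 minus day 14 medians were -0.42 in treated and -0.37 in untreated cells.

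**Figure D5:**
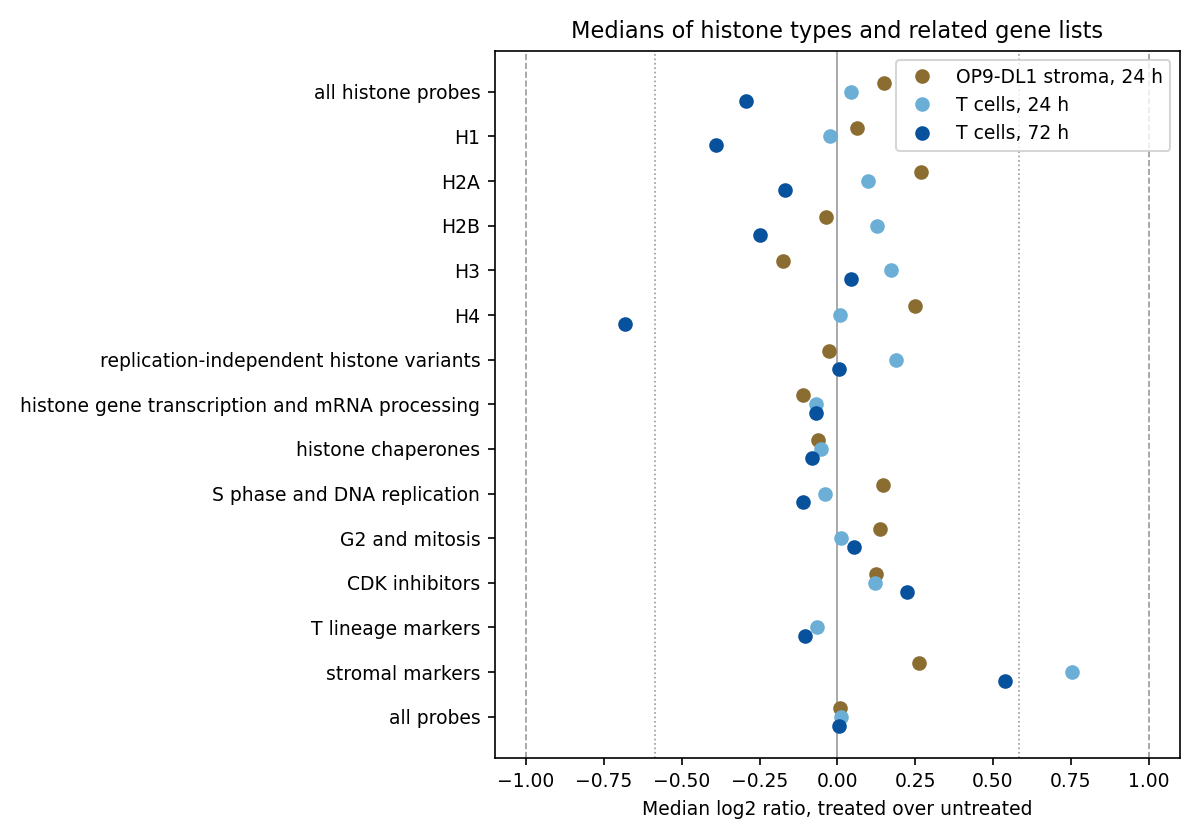
Median log2 ratio of treated over untreated RNA (horizontal axis) for histone types and related gene lists on the 3 arrays. Points are medians over measured probes, a list with fewer than 2 measured probes on an array has no point there, dotted lines mark 1.5-fold and dashed lines 2-fold. At 72 h H4 stands at -0.68, S phase genes at -0.11 and all probes at 0.00.

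Markers of the stromal cells also differed between treated and untreated T cell samples. Their median ratio was 0.75 at 24 h, with 14 of 14 measured probes above 0 (52.6% of all probes). At 72 h it was 0.54, with 15 of 16 above 0 (50.9% of all probes). Their level in untreated stroma was above that in untreated day 14 T cells by a median of 2.92 and above that in untreated day 17 T cells by 1.09, so the same ratio stands on a higher stromal level at 72 h. The part of stromal RNA in the histone values was not tested. T lineage markers had medians of -0.07 at 24 h and -0.11 at 72 h, and in stroma 1 of their 23 probes was above background, a probe of Cd3e. At 72 h 15 of 22 were below 0 (49.1% of all probes), with Bcl11b lowest at -0.60 and Cd3d at -0.48. Cd8b1 rose by 1.62 and the 3 probes of Cd8a by 1.31, 1.33 and 1.53. B lineage markers had medians of 0.17 at 24 h over 5 probes and -0.19 at 72 h over 4, where Blnk fell by 1.02. Myeloid markers had medians of 0.00 and 0.05 over 5 probes, and at 72 h Ctsg fell by 2.07 and Lyz2 by 1.27 while Csf1r was at 0.33 and 0.05 and Mpo at 0.07.

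The promoters of the genes share short letters that the choice of genes did not use. RefSeq promoters (GRCm38.p6, the 250 bases before the start) were found for 30 of the 36 genes, as 31 promoters, and searched on both strands. CCAAT, the box bound by NF-Y, was in 87.1% of them, against 33.8% of 32851 promoters. TATAAA was in 54.8%, against 12.4%. ATTTGCAT, the octamer bound by Oct1 (Pou2f1), was in 35.5%, against 1.6%, with 6 of 10 H2A and 5 of 8 H2B promoters and none of H1, H3 or H4. AAACACA, known from H1 promoters, was in 29.0%, against 6.25%, with 5 of 6 H1 promoters. CCAAT was in 2 of 5 H4 promoters. The promoters of Hist1h4d (chr13:23581318-23581567, plus strand), Hist1h1b (chr13:21780626-21780875, minus strand) and Hist3h2ba (chr11:58948661-58948910, plus strand) are given as those of genes that fell at 72 h, with the letters of these motifs, on either strand, in capitals.
Hist1h4d: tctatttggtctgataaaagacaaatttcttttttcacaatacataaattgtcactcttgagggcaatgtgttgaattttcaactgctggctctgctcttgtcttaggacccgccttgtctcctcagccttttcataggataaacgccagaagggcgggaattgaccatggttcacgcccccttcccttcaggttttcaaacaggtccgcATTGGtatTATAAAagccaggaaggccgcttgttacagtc
Hist1h1b: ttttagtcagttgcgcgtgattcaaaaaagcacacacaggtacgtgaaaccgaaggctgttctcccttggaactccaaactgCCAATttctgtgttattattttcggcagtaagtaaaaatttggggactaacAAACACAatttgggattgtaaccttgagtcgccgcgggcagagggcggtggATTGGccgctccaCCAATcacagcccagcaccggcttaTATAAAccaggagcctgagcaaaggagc
Hist3h2ba: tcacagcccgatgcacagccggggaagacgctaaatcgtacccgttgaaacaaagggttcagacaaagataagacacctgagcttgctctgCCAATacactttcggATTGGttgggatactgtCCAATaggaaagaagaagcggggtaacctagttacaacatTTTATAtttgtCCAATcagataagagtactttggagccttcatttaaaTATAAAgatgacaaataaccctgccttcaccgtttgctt
A match is a description of letters and not of a bound site.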

How the data were processed

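The deposited intensity values are mean signals and local backgrounds of each channel, not normalized. Per the file headers, the submitters extracted them with Agilent Feature Extraction 10.5.1.1. The deposited log10 ratio of Cy5 over Cy3 follows Agilent's own background and dye normalization, per the file headers, and was used as an alternative on the log2 scale.

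With limma 3.58.1 in R 4.3.3 the intensities were corrected by normexp with an offset of 50 and normalized by loess within arrays (span 0.3, control and outlier spots weighted 0). Spots of a probe were averaged, all 41174 probes were normalized together, and levels were scaled by Aquantile. Measured probes had a share of 0.5 or more of their spots well above background. The offset shrinks ratios of dim probes. The steps were tested on simulated arrays with 200 changed spots. The arrays lay on 1 slide. From 117 to 130 spots per array were outliers and 0 were saturated. The number of arrays limits the precision.

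Members and lists were chosen with earlier results of these data known. The genes named were those past 2-fold, the highest and lowest probe of each type on each array, genes with several probes, the extremes of each difference and a set of cell cycle and histone genes. Those named in the report illustrate each group. The 1.5-fold rule and the split by place in the transcript were chosen after values were seen. Alternatives changed the background correction, the normalization, the filter and the probes per gene. Python 3.11.15 with pandas 2.3.3 and numpy 2.4.6 was used for counts.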

Additional observations from a re-analysis of the deposited data

Results flagged for a closer look

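Several histone types had medians of opposite sign on different arrays, each farther from 0 than the SD of repeat spots. That SD covers spots of 1 probe on 1 array, and not the spread between probes, arrays or cultures. The SD between probes of 1 gene was 0.18 in stroma, 0.14 at 24 h and 0.18 at 72 h, and several of the medians below lay within it. With 1 array per group none of the differences in sign was tested. Over all histone probes the median log2 ratio was -0.29 in T cells at 72 h and 0.15 in stroma. For H4 it was -0.68 in T cells at 72 h and 0.25 in stroma. For H2A it was -0.17 in T cells after 72 h, 0.10 after 24 h and 0.27 in stroma, but with the Agilent log ratio the 24 h value was 0.01, within the SD of repeat spots. For H2B it was -0.25 in T cells after 72 h and 0.13 after 24 h. For H3, on 2 to 3 probes, it was -0.17 in stroma and 0.17 in T cells at 24 h. With the Agilent log ratio both H3 medians were below 0, at -0.22 and -0.07, and with centring on measured probes both were above 0, at 0.45 and 0.67.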

How the results depend on the processing

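Of 168 alternative values of the group counts and medians, 142 kept their direction and size, 6 lost calls, 13 gained calls and 7 moved. Of 709 values of single probes and histone types, 458 kept theirs, 2 lost calls and the rest moved. Centring each array on the median of all probes in place of loess moved the median of all measured probes to 0.55 in stroma, 0.37 at 24 h and 0.49 at 72 h. The histone medians were then 0.92, 0.62 and 0.28, so the 72 h value lay below all probes and the others above. The counts were then 13 higher by 2-fold and 30 by 1.5-fold in stroma, 6 and 24 at 24 h, and 4 and 8 at 72 h, with 0 lower at 72 h by either rule. Centring on measured probes gave medians of 0.37 in stroma and 0.25 at 24 h. It gave 4 higher by 2-fold, 9 higher and 1 lower by 1.5-fold in stroma, and 4 higher by 2-fold, 6 higher and 2 lower by 1.5-fold at 24 h. At 72 h it gave 0 lower by 2-fold, and 4 lower and 3 higher by 1.5-fold. The share of all probes past these rules under either centring is not given here. The counts under centring are therefore not read as a result about the histone probes. Medians by type moved too. In stroma centring on measured probes gave 0.45 for H3, 0.23 for H2B and -0.05 for H1, and at 72 h centring on all probes gave 0.13 for H4 and 0.12 for H1. At 24 h the count higher by 1.5-fold was 0 with the Agilent log ratio and 0 without probes above a brightness of 14, an alternative added after the data were seen. The treated day 17 minus day 14 median was -0.99 from processed signals, and the untreated stroma minus day 14 median was -0.70 without a filter on dim probes. The cause of these shifts was not tested, apart from the filter, which adds dim probes. No paired analysis was possible because each group has 1 array. A slide block was not run, since all arrays were on 1 slide. Limits are the single arrays, the lack of a dye swap, cross-hybridising paralogues and 12 of 46 probes not above background in stroma.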
